A study of Mus musculus with 24 samples.

Results

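Mup7, Mup10 and Mup15 are 3 of the 20 major urinary protein (Mup) genes among the 16118 protein-coding genes measured in inguinal white adipose tissue, the subcutaneous fat depot of the mouse groin. They were picked by symbol with their rise in females between postnatal day 21 (p21) and day 28 (p28), and their levels in the female groups at day 28, already known, so every comparison of these 3 genes that uses females is given below as a description without a test. Poly(A) RNA of 24 mice was sequenced, 1 library per animal, in 6 groups of 4. p21 males and p21 females were taken at day 21. At day 28 each sex came either after standard weaning (SW), in which pups were separated from the mother at day 21, or after delayed weaning (DW), in which pups stayed with her. Strain and diet are not given in the sources used here, and the labels name no genetic change and no drug in any group. The values are the deposited normalized read numbers, with no length correction, and a change is given on the log2(value + 1) scale from a limma fit over all 24 animals.

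Major urinary proteins are small secreted lipocalins, barrel-shaped carriers that hold volatile and other hydrophobic molecules. The liver is their main source, and the protein is passed into the urine, where it carries scent signals between mice. Some members are also made in mammary, lacrimal and salivary glands. In liver the genes are known to depend on growth hormone, androgens, thyroid hormone and glucocorticoids. The genes lie in 1 tandem array on chromosome 4 whose copies are close to identical.

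How alike the 3 genes are decides how far single values can be read, so the part of the coding sequence in which they differ most is shown. Over the first 93 coding bases of the GENCODE mouse release 21 transcripts (bases 1 to 93), capitals mark the 5 positions at which Mup7, Mup10 and Mup15 differ from one another.
Mup7: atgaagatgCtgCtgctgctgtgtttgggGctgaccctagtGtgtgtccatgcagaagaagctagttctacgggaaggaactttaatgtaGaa
Mup10: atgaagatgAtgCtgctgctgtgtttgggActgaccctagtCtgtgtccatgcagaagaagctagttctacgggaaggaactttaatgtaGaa
Mup15: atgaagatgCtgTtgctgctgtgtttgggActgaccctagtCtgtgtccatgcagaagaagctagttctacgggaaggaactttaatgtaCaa
These 5 positions are 5 of the 10 at which the 3 coding sequences of 543 bases differ. Mup7 and Mup10 differed at 7 bases (98.71% identity), Mup7 and Mup15 at 7, and Mup10 and Mup15 at 6. Each member had a nearer relative outside the 3 genes. Mup10 differed from Mup9 at 2 bases, Mup15 from Mup2 at 2 and Mup7 from Mup12 at 4.

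A read can be assigned to 1 gene only where its sequence occurs in no other. Of all stretches of 100 bases in the Mup7 transcript, 12.92% were found in no other annotated gene. The share was 14.61% for Mup10 and 2.663% for Mup15, and for Mup22 it was 0%. With stretches of 50 bases the shares were 3.645%, 13.78% and 0% for Mup7, Mup10 and Mup15. The read length and the handling of reads with several matches are not given in the sources used here. The split of reads between these genes is therefore uncertain, and their sum and the sum over all Mup rows are given beside the single values. Mup3, with 97.06%, Mup6, with 100%, and Mup21, with 95.5%, could be told apart from the other Mup genes.

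The stretch before the gene start is shown because the 3 genes moved together between ages. In the RefSeq promoter windows (GRCm38.p6, 250 bases before to 50 after the start, minus strand) the longest run of letters present in all 3 windows had 42 bases and is printed in capitals, behind the 78 bases that precede it.
Mup7, chr4:60070463-60070582: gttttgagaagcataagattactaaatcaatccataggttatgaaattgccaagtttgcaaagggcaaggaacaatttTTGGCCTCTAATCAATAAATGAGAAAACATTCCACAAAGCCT
Mup10, chr4:60582278-60582397: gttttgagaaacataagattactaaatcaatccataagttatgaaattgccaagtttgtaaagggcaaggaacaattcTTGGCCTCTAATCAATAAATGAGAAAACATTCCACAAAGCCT
Mup15, chr4:61439819-61439938: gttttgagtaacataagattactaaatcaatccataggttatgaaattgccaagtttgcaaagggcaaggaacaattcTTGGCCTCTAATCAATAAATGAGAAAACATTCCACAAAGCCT
The shared run began 164 bases before the annotated start of Mup10, 156 before that of Mup15 and 29 before that of Mup7, so the RefSeq start of Mup7 lies at another place relative to it. It was found in 8 of the 13 Mup windows and in 8 of all 32851 windows (0.0244%). The spaced motif TTCNNNGAA, a form bound by STAT5 factors, was searched on both strands. No Mup window held it (0 of 13), against 8.3% of all windows. TATAAA was found in 1 of the 13 Mup windows, that of Mup6, against 13.6% of all windows. The windows of Mup7, Mup10 and Mup15 held neither motif.

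In the deposited table Mup7 (ENSMUSG00000073842) is listed on chromosome 4 from 60066469 to 60070475, Mup10 (ENSMUSG00000078680) from 60534259 to 60538198, and Mup15 (ENSMUSG00000096674) from 61354027 to 61357980, all on the minus strand. These positions are as deposited, the table names no build, and they were not combined with the RefSeq positions above.

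Reads recovered per library ranged from 57600711 to 302145813, and the 3 genes together had between 330 and 28705 reads in each library. Several libraries stood apart. Reads were found for 14054 genes in p21 male 53 against 15859 to 15977 in the other p21 males, and for 15497 genes in SW male 84 against 15955 to 16042. DW females 82 and 83 together lay above or below all 22 other libraries for 3632 of 16118 genes (22.5%), and no other pair of animals within a group did so for more than 4.83%. Some of the results that use these animals are also given without them. Adipocyte genes were high throughout, with adiponectin (Adipoq) at 787 or more in every library.

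At p21 the 3 genes were low in both sexes. Mup7 was 0.725, 2.50, 1.76 and 4.00 in p21 males 37, 38, 53 and 54, and 0.384, 0.978, 2.44 and 2.09 in p21 females 30, 36, 55 and 56. Mup10 was 0.996, 1.51, 1.22 and 1.49 in those males and 0.8001, 1.19, 2.25 and 2.50 in those females. Mup15 was 0.757, 2.13, 3.16 and 5.03 in the males and 1.46, 2.33, 6.06 and 5.74 in the females. The sexes overlapped for all 3 genes. The female minus male difference at p21, a description, was -0.38 for Mup7, 0.17 for Mup10 and 0.37 for Mup15 on the log2 scale.

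Weaned males at p28 had more of each gene than any p21 male. Mup7 was 15.0, 9.51, 15.9 and 18.6 in SW males 78, 84, 85 and 124. In the same animals Mup10 was 13.7, 17.1, 16.6 and 6.56, and Mup15 was 14.5, 27.3, 34.7 and 18.0. No SW male overlapped a p21 male for any of the 3 genes, a separation in this direction that 8.53% of the genes tested showed. Male 124 had the highest Mup7 and the lowest Mup10 of its group, so the genes did not rank the animals alike.

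All 3 genes rose in males between p21 and p28 SW, where 6.9% of the 16005 genes tested were called higher and 4.97% lower. Mup15 rose by 2.77 on the log2 scale (SE 0.35, adjusted p = 5.56e-05), from 2.77 ± 1.80 to 23.6 ± 9.13 (SD, n = 4 each). Mup10 rose by 2.58 (SE 0.39, adjusted p = 2.33e-04), from 1.31 ± 0.247 to 13.5 ± 4.87. Mup7 rose by 2.35 (SE 0.34, adjusted p = 1.53e-04), from 2.24 ± 1.379 to 14.8 ± 3.81. As a ratio of group means these rises were 8.53-fold, 10.3-fold and 6.57-fold, so the order of Mup15 and Mup10 depends on the scale. The sum of the 3 genes went from 6.32 ± 3.29 to 51.9 ± 11.4, a ratio of 8.21. The p-values set each difference against a spread between animals that was pooled over all 6 groups and drawn towards that of other genes. In bulk tissue, fewer cells of a type and less RNA per cell cannot be told apart.

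The genes were also high in males that had not been weaned. Mup7 was 8.77, 7.08, 7.09 and 15.0 in DW males 79, 80, 86 and 87. Mup10 was 6.98, 6.08, 8.25 and 9.53 in these animals, and Mup15 was 11.4, 9.45, 11.4 and 13.7. Every DW male was above every p21 male for all 3 genes, a separation shown by 12.4% of genes.

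All 3 genes were called higher in DW males than in p21 males, where 8.86% of genes were, and 6.1% were lower. Mup10 rose by 1.91 (SE 0.39, adjusted p = 0.00289), Mup15 by 1.85 (SE 0.35, adjusted p = 0.00178) and Mup7 by 1.74 (SE 0.34, adjusted p = 0.0021) on the log2 scale. The ratios of group means were 5.91, 4.15 and 4.23. This comparison and the one with SW males share their p21 animals.

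**Figure D1:**
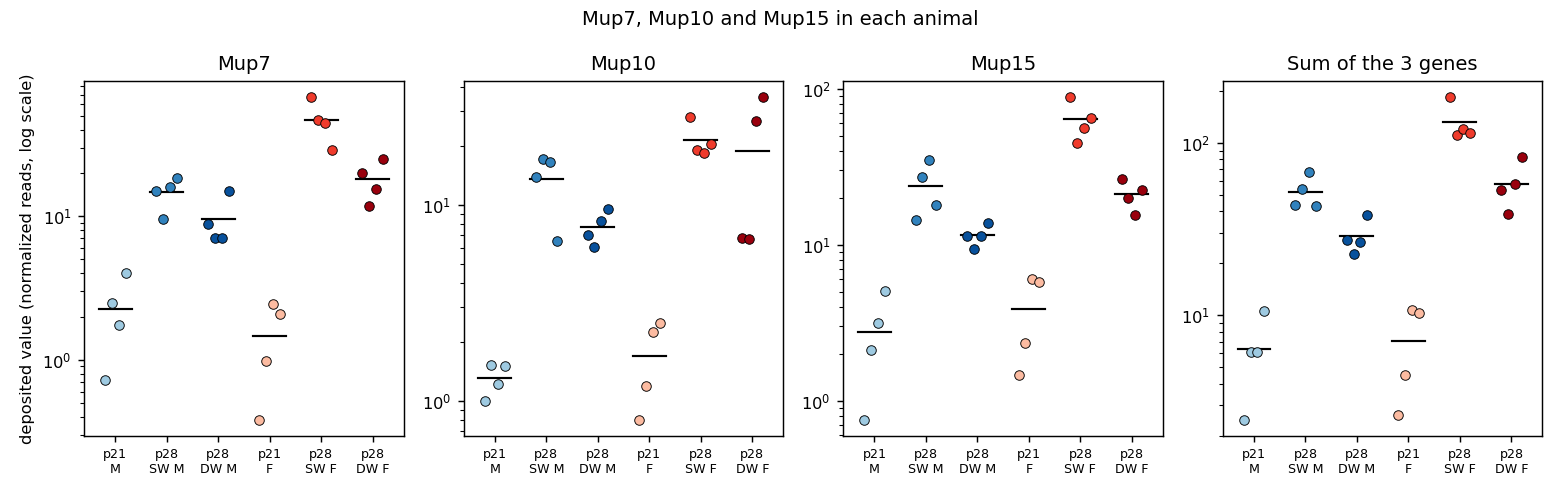
Deposited values (normalized reads, log scale) of Mup7, Mup10, Mup15 and their sum on the vertical axes, which differ between panels, for the 6 groups on the horizontal axis; each point is 1 animal and each bar the mean of 4. The p21 animals lie lowest in every panel, and the 2 high points of Mup10 in DW females, 26.6 and 35.3, are animals 82 and 83.

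DW males lay lower than SW males, but the difference did not pass the test for any of the 3 genes. The change was -0.91 for Mup15 (SE 0.35, adjusted p = 0.535), -0.67 for Mup10 (SE 0.39, adjusted p = 0.82) and -0.61 for Mup7 (SE 0.34, adjusted p = 0.8) on the log2 scale, in a comparison in which 0.025% of genes were called lower and 0.231% higher. For Mup15 no DW male reached the lowest SW male, 13.7 against 14.5, a separation in this direction that 3.4% of genes showed. Mup7 and Mup10 overlapped between the groups. The sum was 22.6 to 38.3 in DW males and 43.1 to 67.2 in SW males, without overlap, with a ratio of means of 0.553. The sum over all Mup rows was 208 to 319 in DW males and 267 to 524 in SW males, and did overlap, with a ratio of means of 0.603. In the authors' deposited table the same comparison has a log2 fold change of -1.04 for Mup15 (adjusted p = 0.0112), -0.81 for Mup10 (adjusted p = 0.0496) and -0.64 for Mup7 (adjusted p = 0.194). DESeq2 on the recovered reads gave -1.05 for Mup15 with an adjusted p of 0.487, and over all alternatives run the adjusted p of Mup15 was 0.134 to 0.984.

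Weaned females had the highest group mean of each gene. Mup7 was 67.3, 46.9, 44.8 and 28.9 in SW females 73, 74, 75 and 81. Mup10 was 28.1, 19.0, 18.3 and 20.4 in these animals, and Mup15 was 88.3, 45.0, 56.4 and 64.9. Female 73 was the highest of the group for all 3 genes. These values chose the genes, so their changes from p21 of 4.31 for Mup7, 3.10 for Mup10 and 3.82 for Mup15 on the log2 scale are only a description. The ratios of group means were 31.9, 12.7 and 16.3. No SW female overlapped a p21 female for any of the 3 genes, as was so for 11.4% of genes in this direction.

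Females that stayed with the mother split by animal for Mup10. In DW females 76, 77, 82 and 83, Mup10 was 6.79, 6.69, 26.6 and 35.3. The values of animals 76 and 77 lay within the range of DW males, that of animal 82 within the range of SW females, and that of animal 83 above it. Mup7 was 20.0, 11.9, 15.4 and 25.0 in the same animals and Mup15 was 26.5, 19.9, 15.4 and 22.3, with no such split. The split was not particular to Mup10. In these animals Mup3 was 3.54, 2.41, 8.97 and 8.40, and Mup19 was 1.34, 1.13, 4.70 and 4.41. Other rows did not show it, such as Mup2 at 1.56, 1.21, 1.15 and 1.47. The ratio of Mup15 to Mup10 was 3.90 and 2.98 in animals 76 and 77 but 0.581 and 0.632 in animals 82 and 83, and in the other 20 mice it ranged from 0.760 to 3.37.

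By group mean, DW females lay between p21 and SW females for all 3 genes. As descriptions, the change from p21 females was 2.99 for Mup7, 2.60 for Mup10 and 2.29 for Mup15, and the DW minus SW difference in females was -1.32, -0.50 and -1.54, all on the log2 scale. Every DW female was above every p21 female for all 3 genes, as for 7.44% of genes, and every DW female was below every SW female for Mup7 and Mup15, as for 3.52% of genes. Without animals 82 and 83 the change of Mup10 from p21 was 1.58 and its DW minus SW difference was -1.52. The sum of the 3 genes was 57.9 ± 18.3 in DW females and 132 ± 34.6 in SW females (SD, n = 4 each). Over all Mup rows the sums were 403 ± 151 and 619 ± 115, and these groups overlapped.

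Levels in mice kept with the mother were also set side by side by sex, as a description, since the levels of DW females were known when the genes were chosen. Group means were higher in females for all 3 genes. The female minus male difference was 0.87 for Mup7 (SE 0.34), 0.86 for Mup10 (SE 0.39) and 0.81 for Mup15 (SE 0.35) on the log2 scale. For Mup15 every DW female, at 15.4 or more, was above every DW male, at 13.7 or less, a separation that 5.6% of genes showed. Mup10 depended on the animals that stood apart, with a difference of -0.15 without females 82 and 83 and of 1.20 without female 76 or female 77. In the authors' deposited table the difference is 1.29 for Mup10, 0.87 for Mup15 and 0.93 for Mup7.

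In weaned animals the female minus male difference, again only a description, was 1.58 for Mup7, 1.43 for Mup15 and 0.69 for Mup10, and the sexes did not overlap for any of the 3. That separation, with females above, was seen in 6.27% of genes.

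Placed in order of group means, Mup7 ran from p21 females and p21 males over DW males, SW males and DW females to SW females, with means of 1.47, 2.24, 9.49, 14.8, 18.1 and 47.0. The p21 groups overlapped, as did DW with SW males and SW males with DW females. Mup10 ran from p21 males (1.31) over p21 females (1.69), DW males (7.71), SW males (13.5) and DW females (18.8) to SW females (21.5), and only p21 females and DW males did not overlap among these neighbours. The place of DW females in this order rests on animals 82 and 83, since animals 76 and 77, at 6.79 and 6.69, were below the mean of DW males. For Mup15 the means were 2.77 in p21 males, 3.90 in p21 females, 11.5 in DW males, 21.0 in DW females, 23.6 in SW males and 63.7 in SW females. Among its neighbours in that order, the p21 groups overlapped and so did DW females with SW males.

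The 3 genes were not the most abundant of the family. Per 1 kb of GENCODE transcript, the mean level in SW females was 260.5 for Mup22, 210.4 for Mup11, 68.8 for Mup15, 50.7 for Mup7, 31.0 for Mup17 and 23.1 for Mup10. Mup22 has no stretch of 100 bases of its own, so its reads could not be told apart from those of other genes. Mup20, which encodes the male scent signal darcin, stayed at 0.174 or less in all 24 animals. The 3 genes held 12.7% ± 2.68 of the summed Mup value in SW males, 11.3% ± 1.31 in DW males, 14.6% ± 1.32 in DW females, from 13.6% to 16.4% over the 4 animals, and 21.4% ± 3.39 in SW females (SD, n = 4 each). At p21 they held 14.0% ± 4.91 in males and 10.0% ± 1.57 in females.

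Most of the other Mup rows rose with them in males. Of the 17 other rows, 12 were called higher from p21 to p28 SW and none lower, where 6.9% and 4.97% of all genes were. Many of these rows differ from the 3 genes at few bases, so calls here and for DW below may not be separate from theirs. The median change was 0.90 over the 17 rows against 0.01 over all genes tested. The log2(value + 1) scale understates changes of low rows. Over all 20 Mup rows the median was 1.23 on this scale and 2.66 with edgeR on the recovered reads. As a ratio of group means the low row Mup14 rose 10.6-fold. Mup11 rose by 3.49 (adjusted p = 8.88e-07) and Mup22 by 3.30 (adjusted p = 1.86e-06), both more than any of the 3 genes. Mup3, whose reads can be told apart, rose by 1.23 (adjusted p = 0.00535), from 0.424 ± 0.319 to 2.35 ± 0.759 (SD, n = 4 each). Mup6, also separable, was 0.0783 at p21 and 0.209 at p28 SW and was not called (adjusted p = 0.0679). Mup21, likewise separable, was 0.00415 at p21 and 0.0356 at p28 SW and was not called (adjusted p = 0.524).

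From p21 to p28 DW in males 6 of the 17 other rows were called higher and none lower, where 8.86% and 6.1% of all genes were. The median was 0.48 against 0.02 over all genes. Over all 20 Mup rows it was 0.56 on this scale and 1.72 with edgeR on the recovered reads. Mup11 rose by 2.81, Mup22 by 2.69 and Mup3 by 1.06 (adjusted p = 0.0127). Without males 53 and 84, 13 of the 20 Mup rows were called higher for SW and 9 for DW, against 15 and 9 with all animals. With edgeR on the recovered reads the counts were 15 and 13. Over all alternatives run they were 12 to 17 for SW and 5 to 15 for DW.

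**Figure D2:**
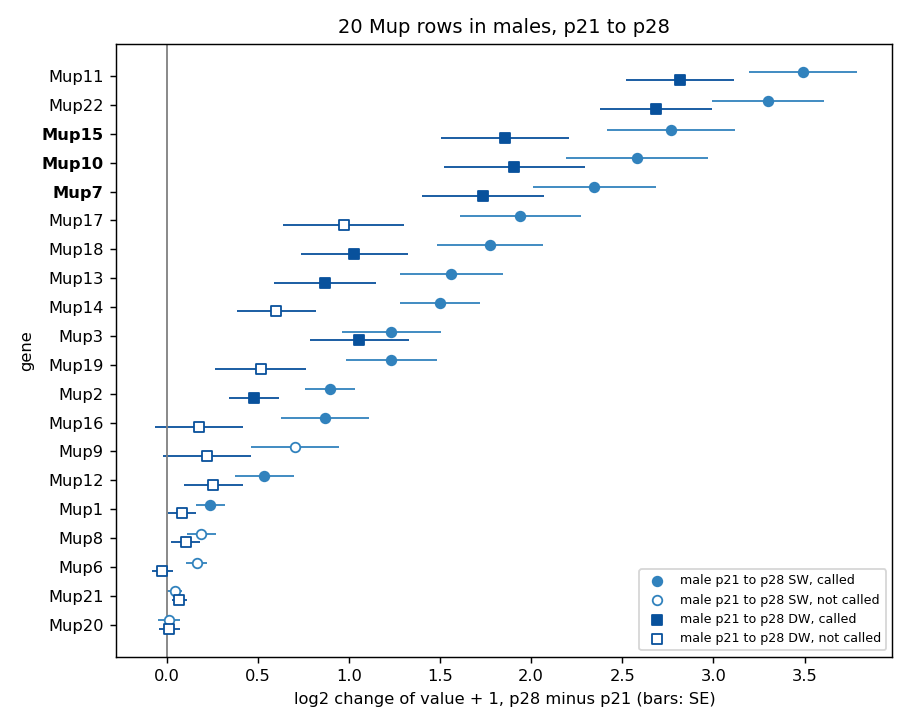
Change from p21 to p28 in males of each of the 20 Mup rows on the vertical axis, as log2 of value + 1 on the horizontal axis, for SW (circles) and DW (squares); bars are standard errors and filled symbols passed an adjusted p of 0.05. Mup11 and Mup22 lie furthest right, followed by Mup15, Mup10 and Mup7, named in bold.

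No Mup row was called between DW and SW males, where the median of the 17 other rows was -0.48. With DESeq2 on the recovered reads 1 of the 20 rows was called lower, and without SW male 85 also 1. In DW females 3 other rows were called higher than in DW males, where 1.89% of all genes were called higher and 0.569% lower: Mup17 by 1.31 (adjusted p = 0.0351), Mup3 by 1.09 (adjusted p = 0.0311) and Mup19 by 0.97 (adjusted p = 0.0372). Of all stretches of 100 bases, 0% in Mup19 and 40.58% in Mup17 were found in no other gene. Calls of these rows may therefore not be separate from the 3 genes, whose levels in DW females were known. Without females 82 and 83, 0 of the 20 rows were called. The count was also 0 when DW male 79, 80, 86 or 87, or female 82 or 83, was left out alone. It was 7 without female 76 and 4 without female 77, in counts that include the 3 genes. Mup17 was 12.1, 10.2, 33.6 and 32.3 in DW females 76, 77, 82 and 83.

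The genes beside the array were called about as often as all genes. No other gene of the table lies between the first and the last Mup row, and 24 lie within 1000000 bases of them in the deposited positions. Of these 24, 0 were called higher and 1 lower in males from p21 to p28 SW, against 6.9% and 4.97% of all genes, with a median change of -0.04. The 1 that fell was Hdhd3 (-0.78, adjusted p = 0.0391). From p21 to p28 DW, Fkbp15 rose by 0.36 (adjusted p = 0.0309) and Hdhd3 fell by 0.98 on the log2 scale (adjusted p = 0.0105), and the other 22 were not called. Without males 53 and 84, 0 were called higher and 2 lower for SW, and 0 higher and 3 lower for DW.

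**Figure D3:**
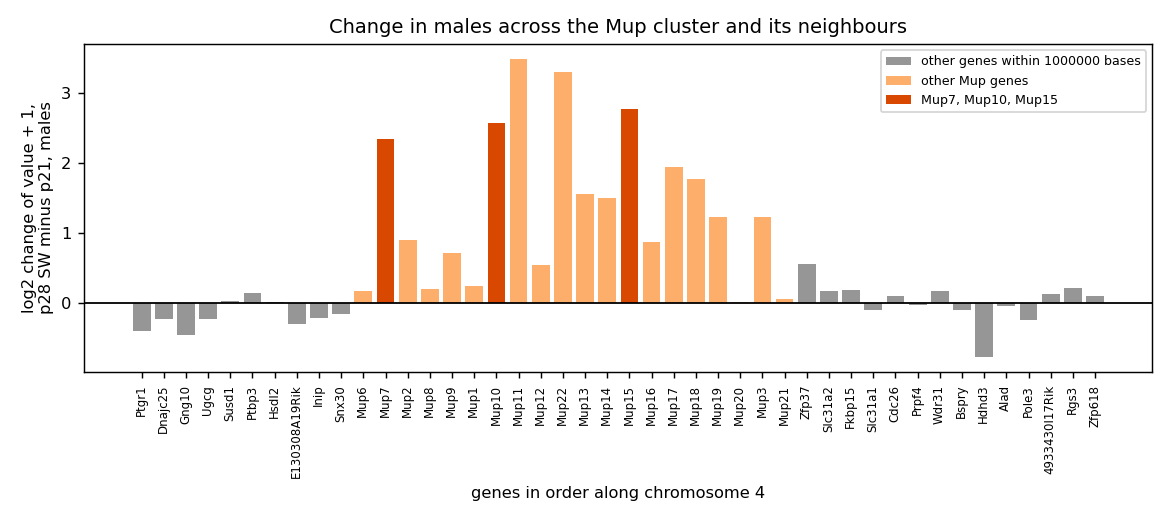
Change in males from p21 to p28 SW, as log2 of value + 1 on the vertical axis, of the 20 Mup rows and of 24 other genes, in their order along chromosome 4 on the horizontal axis. Mup7, Mup10 and Mup15 (dark) and other Mup genes (light) stand above 0, while the neighbouring genes (grey) lie between -0.78 and 0.55.

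Genes of growth hormone signalling, which drives Mup genes in liver, were called in males about as often as all genes. From p21 to p28 DW 0 of 12 listed genes were called, where 8.86% of all genes were called higher and 6.1% lower. Of the 12 genes 0 were called higher and 1 lower from p21 to p28 SW, where 6.9% and 4.97% of all genes were, with a median change of -0.03. The 1 that fell was Igfbp3, which encodes a carrier of insulin-like growth factors (-0.76, adjusted p = 0.0305). The growth hormone receptor gene Ghr was 704 ± 201 at p21 and 709.7 ± 66.6 at p28 SW (SD, n = 4 each, adjusted p = 0.888). Cish, a target and feedback inhibitor of STAT5, was 25.4 ± 22.0 at p21 and 10.8 ± 7.60 at p28 SW (adjusted p = 0.407). Of 10 genes whose products are known to act on Mup genes in liver, 9 were measured. They include the glucocorticoid receptor gene Nr3c1, and 0 were called in either direction for SW or for DW, against the same shares of all genes. Without males 53 and 84, 1 was called higher for DW.

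Other lipocalin genes gave a mixed picture. Of 8 listed, 2 were called higher in males for both SW and DW and 0 lower. Over all genes 6.9% were called higher for SW and 8.86% for DW. Orm1, an acute-phase carrier protein gene, rose by 0.93 for SW (adjusted p = 0.00141) and Rbp4, the retinol carrier gene, by 0.63 (adjusted p = 0.00465). Lcn2, an iron-siderophore carrier gene, was 2.79 at p21 and 1.61 at p28 SW and was not called (adjusted p = 0.132). It was higher in DW females than in DW males, by 1.81 (adjusted p = 1.20e-04).

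Of the markers of liver cells, some were near 0 in all libraries and others were not. Of 10 measured hepatocyte genes 0 were called in males for SW or DW. Over all genes 6.9% were called higher and 4.97% lower for SW, and 8.86% and 6.1% for DW. Apoa1 was at most 0.505, Ahsg at most 0.152, Apoh at most 0.201 and Tat at most 0.221 in any of the 24 libraries. Albumin (Alb) was 25.0 ± 2.56 in p21 males and 25.9 ± 4.49 in SW males (SD, n = 4 each, adjusted p = 0.919). The summed value of the 10 genes was 28.1 to 32.6 in p21 males, 27.1 to 37.4 in SW males and 35.3 to 42.0 in DW males. In females it was 35.7 to 43.8 at p21, 44.9 to 65.8 after SW and 62.6 to 74.9 after DW. The fibrinogen genes Fgb and Fgg, 2 of the 10, were called higher in DW females than in DW males, where 1.89% of all genes were. Without females 82 and 83 the count was also 2. Fgb was 0.337 to 3.10 in p21 females, 8.28 to 15.1 in SW females and 3.90 to 12.3 in DW females. Fgg was 1.55 to 10.6, 17.5 to 20.0 and 8.19 to 19.3 in the same groups, so these fibrinogen genes moved with the Mup genes in females. Alb did not, at 24.0 to 31.1 in p21 females, 15.7 to 32.5 after SW and 34.9 to 59.6 after DW. The part of the hepatocyte genes in the Mup levels was not tested.

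Markers of mammary luminal cells were low in most males. The summed value of 10 such genes was 0.339 to 18.5 in p21 males, 2.18 to 41.8 in SW males and 1.82 to 11.7 in DW males, and 0 of 10 were called for SW or DW, where 6.9% and 8.86% of all genes were called higher. The changes of the 10 genes for SW were all above 0, from 0.03 to 0.65 on the log2 scale with a median of 0.16. In females the same sum was 41.7 to 155 at p21, 96.7 to 212 in DW and 255 to 348 in SW animals, so it moved with the Mup genes there. Of the 10, 7 were called higher in DW females than in DW males, where 1.89% of all genes were. These 7 are among the 10 genes of the mammary list. Their part in the Mup levels of females was not tested. Without females 82 and 83, 8 of the 10 were called higher. Within DW females, animals 82 and 83 had the lower mammary sums, 96.7 and 97.9 against 212 and 190, and the higher Mup sums, 423 and 605 over all Mup rows against 325 and 259.

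Skeletal muscle genes were called higher with the Mup genes in males, 7 of 8 for SW and 7 of 8 for DW, where 6.9% and 8.86% of all genes were. Without males 53 and 84 these counts were 6 and 3. Their summed value was 3.89 to 513 in p21 males, 407 to 5900.2 in SW males and 306 to 6356 in DW males. Single animals are named here as examples. SW male 84 had a muscle sum of 407 and a sum of the 3 Mup genes of 53.9, and p21 male 38 had 513 and 6.14. In SW females the muscle sum was 327 to 2990.3, with a median of 1369 against 292 at p21, so it was higher along with the Mup genes there, and its part in the Mup levels was not tested. In females the muscle sum was 4.78 to 1495 at p21 and 3.49 to 1769.6 in DW animals, with medians of 292 and 84.6. In the sum of the 3 Mup genes every DW female, at 38.5 or more, was above every p21 female, at 10.7 or less. DW female 82 had the lowest muscle sum of all 24 animals, 3.49, and a Mup sum of 57.5. The part of muscle in the Mup levels was not tested in any group.

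**Figure D4:**
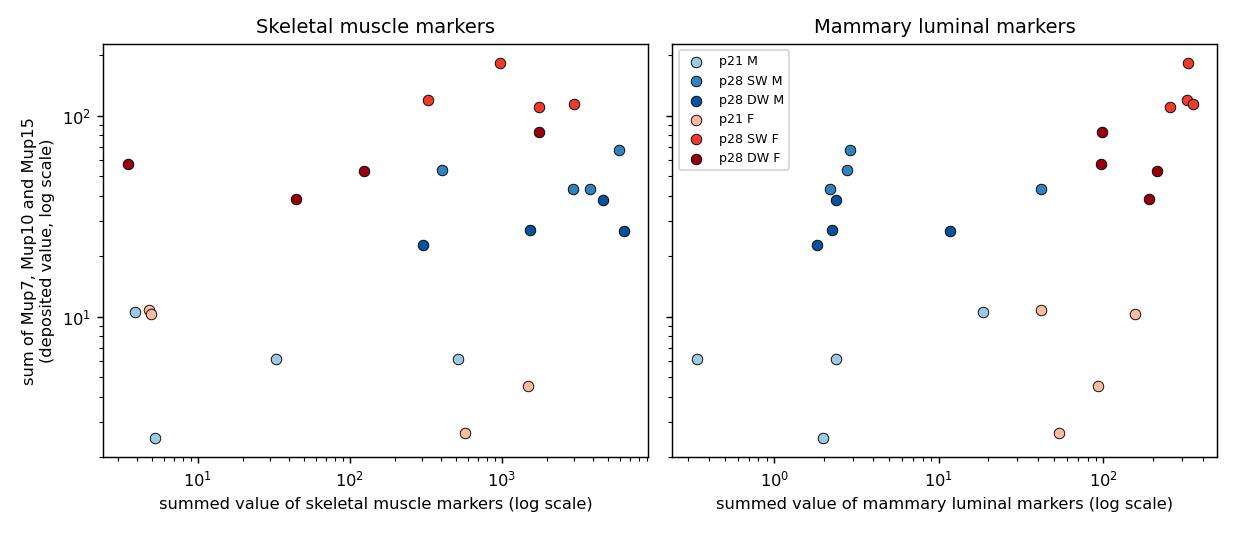
Sum of Mup7, Mup10 and Mup15 (vertical axis) against the summed value of skeletal muscle markers (left) and mammary luminal markers (right), all deposited values on log scales, with 1 point per animal. DW female 82 sits at the far left of the muscle panel with a Mup sum of 57.5, and 3 of 4 SW males have mammary sums of 2.18 to 2.87 with Mup sums of 43.1 to 67.2.

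Adipocyte genes also changed in males. For SW 3 of 8 were called higher and 1 lower, and for DW 2 higher and 0 lower. Over all genes 6.9% were called higher and 4.97% lower for SW, and 8.86% and 6.1% for DW. Without males 53 and 84 the counts were 2 higher and 0 lower for both. Adipoq rose by 0.82 for SW (adjusted p = 6.63e-04), Cidec, a lipid droplet protein gene, by 1.22 and Cfd, the adipsin gene, by 1.34, and leptin (Lep) fell by 1.18 on the log2 scale. Of 3 measured genes listed for sebaceous and preputial glands, Scd3, a desaturase gene, rose for SW (1.59, adjusted p = 2.77e-04) and for DW (1.94, adjusted p = 4.65e-05). Awat2 stayed at 0.491 or less in all libraries. The third gene, Mc5r, was 9.15 to 13.5 in p21 males, 4.06 to 11.7 in SW males and 12.2 to 15.6 in DW males, and was not called. In the basal epithelial list 0 of 5 genes were called in males for SW or DW. In the lymph node list Cd3e and Ccr7 (2 of 6) were called lower for both, where 4.97% and 6.1% of all genes were. Without males 53 and 84, 0 of 6 were called for SW and 1 of 6 lower for DW. The part of these other genes in the Mup levels was not tested.

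Genes outside the family were ranked by how alike their pattern was to the sum of the 3 genes, by Pearson's r on log2(value + 1) over the 24 animals, among 13138 genes with a mean value of at least 1. Among the 5 most alike were Hephl1 (r = 0.906), Acox2 (0.881), Tpd52 (0.880) and Clec7a (0.877). The animals share groups, so these values follow the group means. After the group means were subtracted these 4 genes had r between 0.0669 and 0.229, and others ranked first, namely Cep135 (0.786), Zfp872 (0.718), Primpol (0.680), H2bc6 (0.671) and Nat8f4 (0.667). Hephl1, a copper-dependent ferroxidase gene, was 1.84 ± 0.729 in p21 males and 10.2 ± 1.71 in SW males, and 1.13 ± 0.635 in p21 females and 14.6 ± 3.93 in SW females (SD, n = 4 each). Within groups the sum had r = 0.804 with Mup22 and 0.745 with Mup11, whose sequences are close to those of its members.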

How the data were processed

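The authors deposited a normalized signal per gene and sample, in which each value is a read number divided by a factor of its library. The table holds 16208 rows, of which 90 repeats were dropped, leaving 16118 genes. Per the submitters' processing notes, the tools were fastp, HISAT2, featureCounts and DESeq2 1.38.3, with mm10. All values (100%) were whole multiples of 1 read within 0.001, so reads were recovered, and the deposited scaling lay within 0.965 to 1.03 of TMM. Of 36 replicate pairs none agreed within sampling noise. The deposited table also gives the authors' own log2 fold changes and adjusted p-values, used only where their table is named. Groups follow the age, sex and weaning labels; titles of p21 libraries give another age. Only 2.23% of 16095 deposited gene starts equalled GENCODE release 21 (GRCm38), so builds were kept apart.

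limma 3.58.1 (R 4.3.3; lmFit, eBayes with a variance trend, 18 residual degrees of freedom) was fitted to log2(value + 1) of 16005 genes kept by filterByExpr (minimum count 10), with Benjamini-Hochberg adjustment over all of them; genes were called under 0.05. The scale understates changes of low genes. The scripts were tested on simulated data. The members and all lists were chosen with earlier results of these data known. Genes named were the 3 members, other Mup rows, genes of the lists, neighbours within 1000000 bases, and the 5 most alike genes by each measure. Some of these are not reported here. A planned test of the members between DW females and DW males is given only as a description, since the choice of members drew on DW females. A division of the p28 animals by number (73 to 80 against 81 to 124, which the labels do not mark as batches), edgeR 4.0.16, DESeq2 1.42.0, other pseudocounts (0.1 and 5), no filter, only the compared groups, no trend and leaving out each animal were alternatives.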

Additional observations from a re-analysis of the deposited data

Results flagged for a closer look

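Within each group of 4 animals, 210 sets of values were checked for 1 animal far from the other 3, and chance flags about 1 in 20 (10.5). The check found 16. Among the sums, SW female 73 had 183.677 for Mup7, Mup10 and Mup15 together, against 110.88 to 119.463 in the other SW females. Mup22 was 22.371 in p21 male 54 against 14.0161 to 14.9317. In SW female 74, Mup9 was 2.23686 and Mup13 was 3.68948, both below the other 3 animals, and 15972 genes had a read. In p21 male 53, Mup16 was 1.6948 against at most 0.149472, and 14054 genes had a read. In SW male 84, 15497 genes had a read.

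The low Mup rows gave 4 further cases. In p21 female 56, Mup6 was 0.119169 and Mup19 was 0.320839, both above the other 3. Mup20 was 0.0291466 in SW female 81, and Mup21 was 0.016608 in p21 male 54, the 1 p21 male with any Mup21 read. Among the marker lists, the growth hormone signalling sum was 1541.54 in p21 female 56 and the adipocyte sum was 23645.7 in p21 female 30, each the highest of its group. The mammary luminal sum was 41.7865 in SW male 78 against 2.17973 to 2.86632, and 11.6661 in DW male 86 against 1.82257 to 2.3767.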

How the results depend on the processing

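All 3 genes stayed called higher in males from p21 to p28 under every alternative run, for SW (1.45 to 3.38 on the log2 scale, largest adjusted p 0.00533) and for DW (0.99 to 2.56, largest adjusted p 0.0261), and none was called between DW and SW males under any. For DW females against DW males, Mup10 went to -0.15 when females 82 and 83 were left out, an alternative chosen after seeing the data, and ranged from 0.46 to 1.20 when 1 animal was left out, reaching 1.20 without female 76 or female 77; the cause was not tested. The number of genes called from p21 to p28 SW was 922 with only those groups fitted and 1033 without males 53 and 84, and from p21 to p28 DW it was 1447 without those males; with 1 animal left out the counts ran from 1149 to 1731 and from 1229 to 2555. Between DW and SW males it was 111 with DESeq2 and 134 with only those groups, and 10 to 42 with 1 animal left out. For females against males in DW it was 848 with DESeq2 and 251 with only those groups, and 265 to 1822 with 1 animal left out. Summed over all Mup rows, the log2 ratio of means was 3.21 for females from p21 to p28 SW, -0.62 for DW against SW females and 0.55 for females against males after SW, against 4.23, -1.19 and 1.35 for the 3 genes. At p21 single genes had as few as 48 reads in a library, and single values are also limited by shared sequence. No paired analysis was possible because the groups share no animal numbers.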
